A study of Mus musculus with 17 samples.

Results

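The regions described here are the 1000 widest H3K27ac regions of the class called common by the authors, that is, neither lost nor gained between spermatogenic cells with and without BRG1. They were chosen by measured width alone from the 167381 common regions on chromosomes 1 to 19, with ties broken by chromosome name and start, and are called members. The whole common list held 170137 regions. The members made up 0.597% of the regions on chromosomes 1 to 19 and 2.73% of their length. Width came from the H3K27ac libraries themselves, so the widths below are a description and carry no test.

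Acetylation of histone H3 at lysine 27 is laid down mainly by the coactivators CBP and p300 and marks active promoters and enhancers. Wide stretches of the mark are known from the promoters of strongly transcribed genes and from clustered enhancers. BRG1 is a catalytic ATPase subunit of SWI/SNF, a complex that slides and evicts nucleosomes and is recruited to many acetylated sites, in part through bromodomains that bind acetylated lysines. In the mouse testis, the first wave of spermatogenesis enters meiosis at about the younger age studied here, and pachytene spermatocytes become common by the older one.

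H3K27ac was mapped at postnatal day 12 (P12) in spermatogenic cells of a mixed strain background, in 2 libraries labelled Brg1WT and 2 labelled Brg1cKO. In the Brg1cKO mice, Brg1 was deleted with Mvh-cre, a Cre active in germ cells, so other cell types of the testis keep the gene. The input library was shared by the H3K27ac and H2AK119ub1 experiments and held both genotypes. BRG1 was mapped in wild type CD1 mice at P12 and at P18 (postnatal day 18), each with 2 libraries from the ChIP and 2 from input. All cells were sieved from digested testes without a sort being named, and all chromatin was cut with micrococcal nuclease. Each list stands for its libraries together, so no value has an error between replicates. The lists do not give the sequencing depth. The labelled cell type was not checked against marker genes, since gene positions in the build of the files, mm9, were not used here. In such bulk chromatin, fewer cells with a mark and less mark per cell cannot be told apart. H3K27ac and BRG1 also come from different strains, and the H3K27ac list from both genotypes.

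Members were 1094 to 50609 bp wide, with a median of 1274 bp and quartiles of 1165 and 1446 bp. The other 166381 common regions had a median width of 271 bp and reached 1094 bp. The limit cut through regions of equal width. The last 3 members, at chr10:79753752-79754845, at chr12:27091186-27092279 and at chr17:34002557-34003650, were each 1094 bp wide. The first 3 regions left out were 1094, 1094 and 1093 bp wide, at chr17:43720254-43721347, at chr18:76229628-76230721 and at chr11:50464219-50465311. None of these 3 members overlapped a BRG1 peak, and of the 3 regions left out 1 did. All coordinates are in mm9 and are counted from 1. The X chromosome, outside the rule, held 12 common regions of at least 1094 bp, the widest 3040 bp.

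A group of 3 members stood apart in width. They lay at chr9:13167320-13217928 (50609 bp), at chr6:47596490-47636110 (39621 bp) and at chr5:26421182-26435731 (14550 bp). The next widest, at chr11:60387751-60391927 and at chr13:55311056-55314249, measured 4177 and 3194 bp. The first 3 thus made up 105 kb of the 1466 kb that members covered. Whether reads can be placed reliably in these 3 stretches was not examined, since no genome of the build was used here, so their widths and their BRG1 values are uncertain. BRG1 was sparse on them. The region on chromosome 9 lay 336 kb from the nearest P12 peak, and the one on chromosome 5 lay 23.7 kb from one. The region on chromosome 6 held 2 P12 peaks, of 343 and 1192 bp, and 1 P18 peak of 364 bp, all near its left end, and P12 peaks covered 3.87% of it. The member on chromosome 13 was different, since a P12 peak of 3889 bp enclosed it whole and a P18 peak of 1184 bp lay inside it.

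BRG1 was found at about every other member at P12. A P12 BRG1 peak overlapped 504 of the 1000 members (50.4%, 95% interval 47.3 to 53.5), against 9.06% of all common regions on chromosomes 1 to 19. Of the other common regions, 8.81% (8.67 to 8.95) met a P12 peak. A P18 peak overlapped 193 members (19.3%, 16.9 to 21.9), against 1.77% of all common regions and 1.66% (1.60 to 1.72) of the others. With only P18 peaks of a −log10 q (the peak caller's measure of significance) of at least 3, the members' share was 3.7%. Other regions were not counted at this cut, so the 3.7% has no background. The intervals are exact Clopper-Pearson intervals and cover counting error only. Regions are not replicates of a condition, so these are shares of lists, given without a test of the animals. Overlap meant at least 1 bp.

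The share with BRG1 changed gradually with width and showed no step at the limit of membership. Among the 100 widest regions, 61.0% (50.7 to 70.6) met a P12 peak, and among ranks 501 to 1000 it was 43.8% (39.4 to 48.3). The next 1000 regions, with a median width of 992 bp, had 39.3% (36.3 to 42.4), so the interval overlaps that of ranks 501 to 1000. Ranks 2001 to 5000 had 33.7% (32.0 to 35.4) and ranks 20001 to 50000 had 12.2% (11.9 to 12.6). The 67381 narrowest regions, with a median width of 213 bp, had 4.49% (4.34 to 4.65). The share at a P18 peak ran in the same order, from 28.0% (19.5 to 37.9) in the 100 widest to 15.3% (13.1 to 17.7) in the next 1000 and 0.555% (0.50 to 0.614) in the narrowest class.

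**Figure D1:**
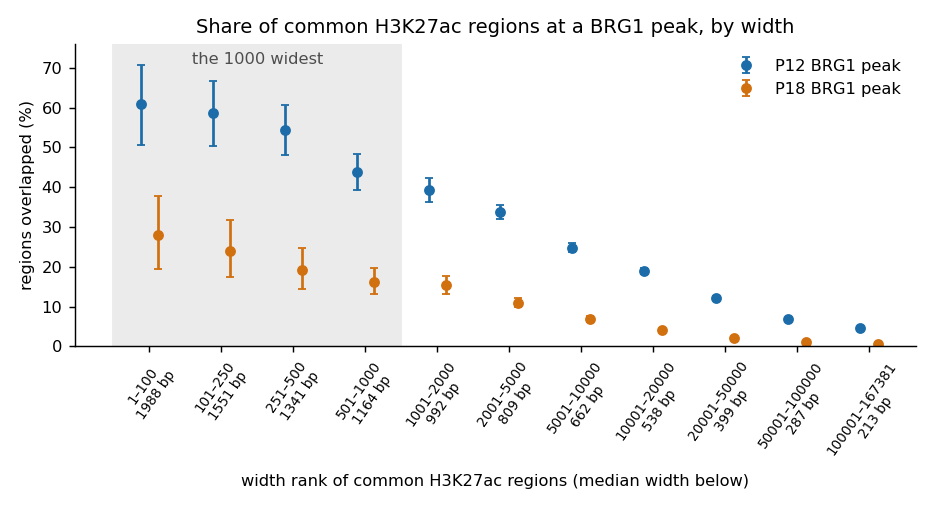
Share of common H3K27ac regions overlapped by a BRG1 peak at P12 (blue) or P18 (orange), in classes of width rank; the median width of each class stands under its ranks and bars are exact 95% intervals. P12 shares run from 61.0% in the 100 widest regions to 4.49% in the narrowest class, with no step at rank 1000.

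A wide region can meet a peak more easily, so BRG1 was also measured in ways that do not depend on width. The middle base of the region lay inside a P12 peak in 41.6% (38.5 to 44.7) of members, in 31.9% (29.0 to 34.9) of the next 1000 and in 7.46% (7.34 to 7.59) of all other regions. For P18 peaks these shares were 9.90% (8.12 to 11.9), 8.80% (7.12 to 10.7) and 1.14% (1.09 to 1.19). At P18 the intervals of members and of the next 1000 therefore overlapped. In a window of 1094 bp about the middle, the same for every region, a P12 peak was present in 49.5% of members, 39.6% of the next 1000 and 10.9% of the others. The order of the 3 groups was the same by each of these measures. It was different for peaks counted per 100 kb of region length. P12 peaks then numbered 34.7 on members, 39.4 on the next 1000 and 28.0 on the others. For P18 peaks the numbers were 13.4, 15.3 and 5.28. Without the 3 members over 10 kb wide, the members' P12 value was 37.2.

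BRG1 also took up more of the length of all members together. P12 peaks covered 35.6% of it, 29.3% of the length of the next 1000 regions and 9.41% of that of all other regions. Without the 3 members over 10 kb wide, whose length was covered to 1.46%, the members' value was 38.2%. P18 peaks covered 7.71%, 7.6% and 1.49% in the 3 groups. These totals include regions without a peak. Among regions with a P12 peak, the median share covered was 85.7% for members, 86.2% for the next 1000 and 100% for the others. Among those with a P18 peak it was 34.1%, 46.6% and 60.6%, so single members with a peak were not covered more. In the 500 bp that lead away from each edge, P12 peaks covered 19.7% beside members, 17.0% beside the next 1000 and 5.26% beside the others. These flanks were covered in part by the peaks that overlapped the region. A P12 peak that lay within 1 kb without overlapping was found at 3.3% (2.28 to 4.60) of members, 4.2% (3.04 to 5.64) of the next 1000 and 4.87% (4.77 to 4.97) of the others. Regions that overlapped a P12 peak could not count here, and they were far more frequent among members. Of the regions without an overlapping P12 peak, it was 33 of 496, 42 of 607 and 8100 of 151726. The shares of all regions are thus not read as fewer nearby peaks beside members.

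**Figure D2:**
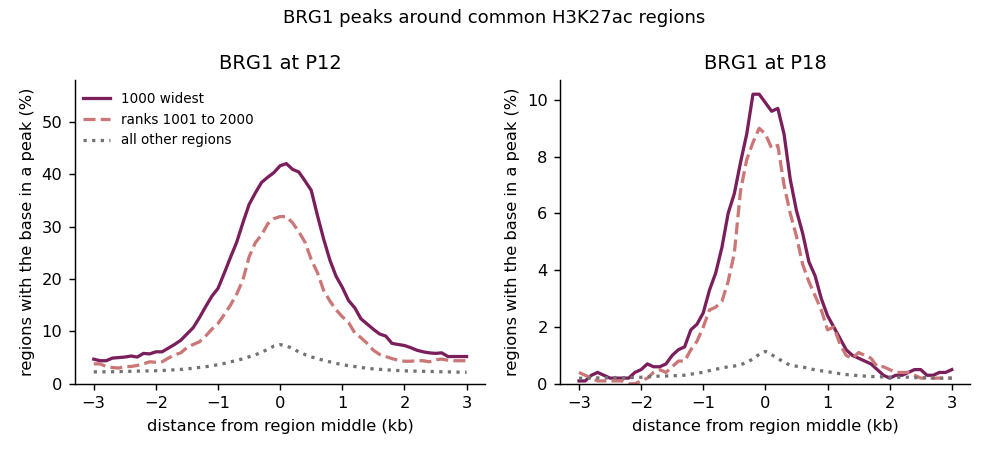
Share of regions whose base at a given distance (kb) from the region middle lay inside a BRG1 peak, at P12 (left) and P18 (right), for the 1000 widest regions (solid), the next 1000 (dashed) and all other common regions (dotted). At the middle the P12 shares are 41.6%, 31.9% and 7.46%, and the vertical scales of the panels differ.

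P12 BRG1 was most frequent near the middle of the member, although many peaks reached past an edge. Along the profile, 41.6% of members had P12 BRG1 at their middle, 18.4% at 1 kb on the right of it and 5.20% at 3 kb, against 7.46%, 3.65% and 2.20% for all other regions. At P18 the members' shares fell from 9.90% at the middle to 2.40% at 1 kb. The members and P12 peaks formed 509 overlapping pairs, from 505 different peaks. The peak lay inside the member in 115 of these pairs (22.6%) and enclosed it in 154 (30.3%), and in 240 (47.2%) it crossed 1 edge. The middles of peak and member were a median of 290 bp apart. A single peak could span several acetylated regions, and 198 of the 505 peaks (39.2%) overlapped another common region as well.

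P18 peaks were smaller and sat within the P12 footprint. Of the 196 different P18 peaks at members, 181 (92.3%) lay wholly inside a P12 peak. This was counted at members alone. An overlap with a P12 peak was not particular to them. It was found for 99.5% of P18 peaks at members, 99.5% at other common regions and 91.3% away from common regions. In 114 of the 197 pairs of a member and a P18 peak (57.9%) the peak lay inside the member, and in 5 (2.54%) it enclosed it. A member with a P18 peak had a median of 34.1% of its length covered at P18, while one with a P12 peak had 85.7% covered at P12. The P12 list as a whole covers 17.7 Mb of these chromosomes and the P18 list 1.63 Mb, and the part of depth in this was not tested.

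At both ages BRG1 was found on 192 members, and 312 had a peak at P12 alone. Another 495 had no peak at either age. The remaining member, at chr15:103070001-103071185, had a P18 peak of 427 bp (−log10 q of 2.03) and lay 14.4 kb from the nearest P12 peak; it was named after its values were seen. Of the 504 members at a P12 peak, 38.1% (33.8 to 42.5) also met a P18 peak, against 19.3% of all common regions at a P12 peak. The share in the next 1000 regions was 38.7% (33.8 to 43.7), and its interval overlaps that of members. Over all P12 peaks the share was 18.6% (18 to 19.3) in all other regions. The value depends on the P12 peaks counted. With only the strongest P12 peaks, as many as the P18 list holds, 126 of 180 members at such a peak (70.0%) also met a P18 peak. Other regions were not counted at this cut, so the 70.0% has no background.

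Members with BRG1 at both ages carried the stronger P12 peaks. The strength of a peak is the −log10 q value that the authors' peak caller gave it, and it ranks peaks within a list only. The highest P12 value at the 192 members ranged from 2.71 to 13.2 with a median of 7.44. At the 312 members with P12 BRG1 alone it ranged from 1.52 to 12.3 with a median of 4.63. The ranges overlapped widely. P12 peaks covered a median of 95.8% of the members found at both ages and 72.9% of those found at P12 alone. Their widths were close, with medians of 1322 and 1304 bp, and the members with no BRG1 peak had a median of 1241 bp.

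**Figure D3:**
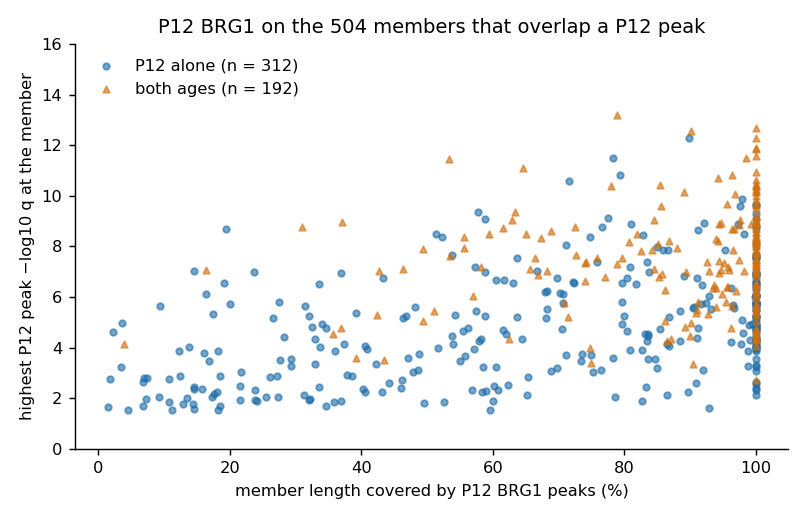
Each point is 1 of the 504 members that overlap a P12 BRG1 peak, placed by the share of its length that P12 peaks cover (horizontal) and by the highest −log10 q among them (vertical). Members that also meet a P18 peak (192, orange triangles) lie mostly high and to the right, with a median of 7.44, against 4.63 for the 312 found at P12 alone (blue circles).

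Seen from the side of BRG1, members held few of the peaks and few of the strongest ones. They held 2.75% of the 18336 P12 peaks and 6.49% of the P18 peaks on these chromosomes. Of the 100 strongest P12 peaks 4 lay at a member, and of the 1000 strongest 52 (5.20%, 3.91 to 6.76). Among the 1000 strongest P18 peaks 62 did (6.2%, 4.79 to 7.88). The members' share was thus higher among the 1000 strongest P12 peaks than among all P12 peaks, but not so at P18. The median −log10 q of P12 peaks at members was 5.65 (quartiles 3.94 and 7.53), at other common regions 4.86 (3.27 and 6.75), and away from common regions 3.22 (2.39 and 4.42). Stronger peaks were not particular to members. Among regions with a P12 peak, the highest value had a median of 5.69 at members and 5.94 in the next 1000. In all other regions it was 5.12.

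P12 peaks at members were wide. Their median width was 1540 bp, against 942 bp at other common regions and 555 bp away from them. Of 5 bins of equal number by peak width, the widest held peaks of 1401 bp and more, and there 302 of 3667 (8.24%, 7.37 to 9.17) lay at a member. In the narrowest bin, up to 365 bp, it was 34 of 3668 (0.927%, 0.643 to 1.29). A wide peak also meets more regions, and its part in this difference was not tested.

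P12 peaks at members were found again at P18 more often than P12 peaks at all other common regions together or away from them. Over all P12 peaks, 40.2% (35.9 to 44.6) of the 505 at members overlapped a P18 peak, 22.8% (22 to 23.6) of the 10284 at other common regions and 4.74% (4.28 to 5.25) of the 7547 away from them. Among peaks 1000 to 2000 bp wide, the shares were 45.6% (38.8 to 52.5) of 215, 34.4% (32.9 to 35.9) of 3708 and 9.0% (7.56 to 10.6) of 1423. The first 2 intervals still did not overlap, but in this width range peaks at members also had the higher median −log10 q, 6.55 against 5.65 at other common regions. Peaks at the next 1000 regions were not counted apart. Among regions at a P12 peak, 38.1% of members and 38.7% of the next 1000 also met a P18 peak. Being found again at P18 is thus not particular to members.

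P12 peaks were then split by −log10 q into 5 bins of equal number. In the strongest bin (6.45 to 18.2), peaks 1000 to 2000 bp wide overlapped a P18 peak in 63.5% (54.0 to 72.3) of 115 cases at members and 60.7% (58 to 63.2) of 1380 at other common regions. Away from common regions it was 36.8% (28.6 to 45.6) of 133. In the next bin (4.71 to 6.45), at these widths, the shares were 42.9% (27.7 to 59.0) of 42, 29.3% (26.6 to 32.1) of 1098 and 14.4% (10.6 to 18.9) of 298. In both bins the intervals at members and at other common regions overlapped, which does not show that the shares are equal. At these widths in the strongest bin, the P12 peak's middle lay inside a P18 peak in 47.83% (38.4 to 57.3) at members. At other common regions it was 41.96% (39.3 to 44.6). In the next bin these shares were 19.05% (8.6 to 34.1) and 17.85% (15.6 to 20.2). By this measure the shares lay closer in the next bin but further apart in the strongest, and the intervals again overlapped. The 3 weaker bins, with 59, 42 and 84 peaks at members, were not compared at like width.

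The members with the strongest P12 peaks showed the arrangement in detail. At chr16:37867756-37869726, a P12 peak of 1556 bp with a −log10 q of 13.2 lay inside a member of 1971 bp. A P18 peak of 1190 bp (2.31) lay inside that peak. At chr6:117856822-117858284, a P12 peak of 1944 bp (12.7) enclosed a member of 1463 bp, and a P18 peak covered 82.7% of it. The member at chr1:136456336-136457992 was 1657 bp wide and had a P12 peak of 1890 bp (12.5) shifted to its right, with a P18 peak of 1485 bp (2.68). The last 2 of the 5, at chr17:84585130-84586590 and chr17:84587465-84588789, shared a single P12 peak of 4009 bp (12.3). Of these the first had its length covered to 92.7% by a P18 peak, which ended 0.154 kb before the second. In 4 of the 5 the P18 peak was thus present, although its own −log10 q of 2.14 to 2.68 was near the middle of the P18 list, whose median was 2.41.

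**Figure D4:**
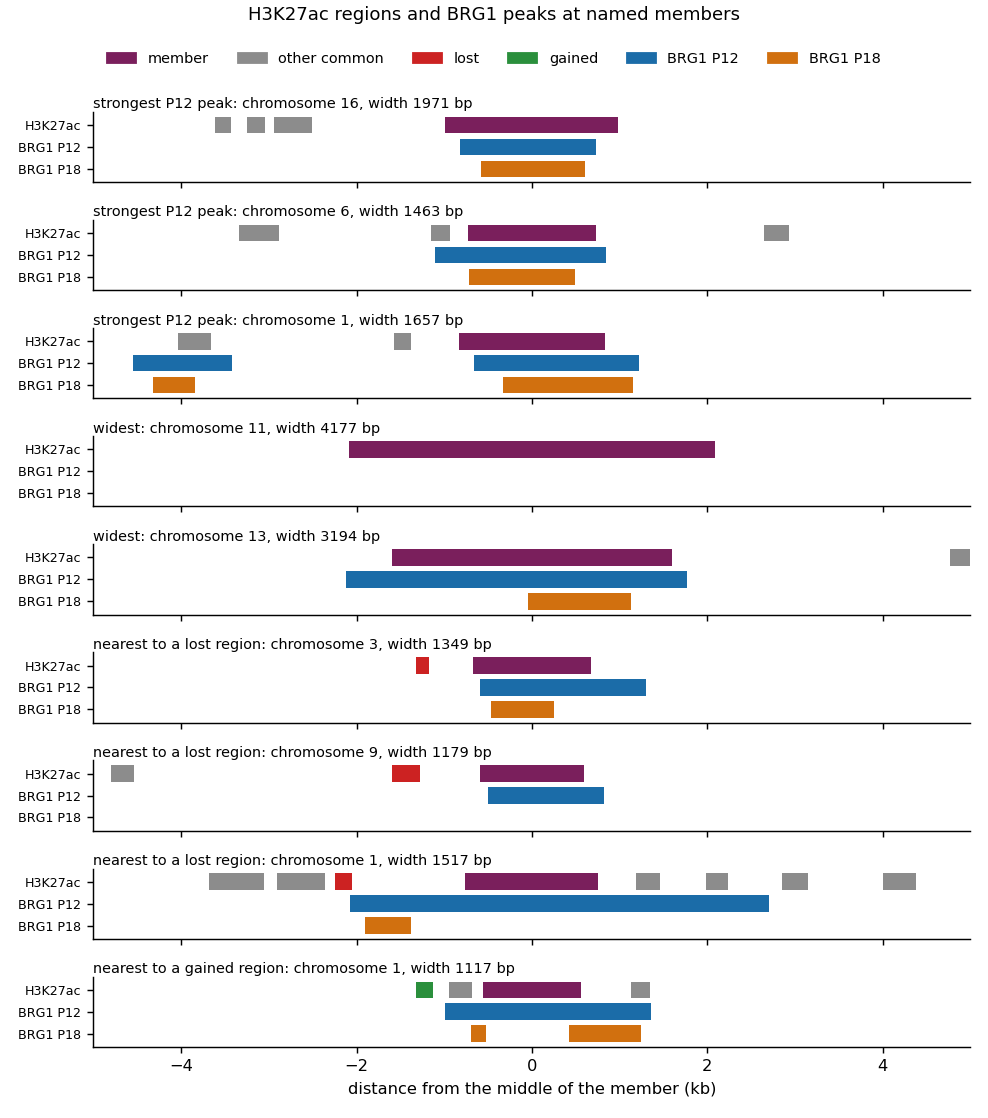
H3K27ac regions (member in purple, other common in grey, lost in red, gained in green), P12 BRG1 peaks (blue) and P18 BRG1 peaks (orange) within 5 kb of the middle of 9 named members, drawn to scale by distance from that middle. BRG1 peaks overlie 8 of the 9; the member of 4177 bp on chromosome 11 has none in view.

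More than 1 P12 peak on a member was rare. A single peak was found on 499 members and 2 peaks on 5. The list itself holds no P12 peaks closer than 717 bp, which limits how many a member can hold. Besides the region of 39621 bp, these were the members at chr16:91728494-91730068, at chr4:124386411-124387675, at chr6:54319310-54320456 and at chr11:69526674-69528303. The one on chromosome 16 had its second and stronger peak, of 927 bp (7.04), across its right edge, where a P18 peak of 578 bp also lay. At the other 3 the 2 peaks lay at or near opposite edges, covered between 7.48% and 42.3% of the member, and had −log10 q values of at most 3.33. None of these 3 had a P18 peak.

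Members without BRG1 included wide regions too. The set of 495 members with no peak at either age held 4 of the 6 widest, among them 2 of the 3 over 10 kb whose width is uncertain. Beside the regions on chromosomes 9, 5 and 11 named above, it included the one at chr9:108920986-108924118 (3133 bp), 16.8 kb from the nearest P12 peak. The next widest without BRG1 was at chr12:4185479-4188392 (2914 bp), 12.5 kb from one. The member of 4177 bp on chromosome 11 lay 35.0 kb from one. Over the 496 members without a P12 peak, the nearest P12 peak was a median of 15.8 kb away (quartiles 5.02 and 41.7 kb). Of these members, 38.9% (34.6 to 43.4) had a P12 peak within 10 kb. The median for other common regions without a peak was 24.1 kb, and 30.2% (30.0 to 30.4) of them had a peak within 10 kb. The next 1000 regions had values near those of members, 14.3 kb and 40.0% (36.1 to 44.1).

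Members had many acetylated neighbours. The nearest other common region was a median of 0.724 kb away (quartiles 0.238 and 2.04 kb), against 1.85 kb for all other regions and 0.799 kb for the next 1000. Within 10 kb of a member lay a median of 5 other common regions, within 50 kb 22, against 3 and 14 for all other regions. Common regions covered 11.4% of the 10 kb on either side of members and 6.43% beside the others. Only 54 members (5.40%, 4.08 to 6.99) had no common region within 10 kb, against 13.9% (13.8 to 14.1) of the others. The next 1000 regions were much like members here, with medians of 5 neighbours within 10 kb and 21 within 50 kb, and 4.6% (3.39 to 6.09) without any within 10 kb. The neighbours themselves were mostly narrow, with a median width of 313 bp beside members and 273 bp beside other regions. Neighbours come from the same list as the widths, so these values are a description.

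Some members lay close to another member. Of the 1000, 11 (1.10%) had another member within 1 kb, 79 (7.90%, 6.30 to 9.75) within 10 kb and 305 (30.5%) within 100 kb. The nearest other member was a median of 276 kb away. Members are 0.597% of the common regions, and no like share was computed for other sets of regions. These values are thus not read as few or many.

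P12 BRG1 was more frequent on members with a close acetylated neighbour. Where the next common region began within 300 bp, 64.8% (59.1 to 70.2) of 301 members met a P12 peak. At gaps of 0.3 to 1 kb it was 51.7% (45.8 to 57.7) of 286, at 1 to 10 kb 40.4% (35.3 to 45.7) of 359, and beyond 10 kb 29.6% (18 to 43.6) of 54. The other regions had the same order at lower shares, 21.9%, 12.7%, 4.95% and 2.77%. In the next 1000, the shares were 57.1%, 40.5%, 26.2% and 39.1%, the last over 46 regions. The number of neighbours within 10 kb made less difference among members once there was any. P12 shares were 50.8% with 1 to 4 neighbours, 50.3% with 5 to 9 and 54.6% with 10 or more, against 29.6% with none. P18 shares of members in these 3 classes were 22.5% (18.3 to 27.2), 18.7% (14.7 to 23.2) and 16.4% (11.9 to 21.7), with overlapping intervals, and were 14.8% (6.62 to 27.1) with none. In all other regions the P12 shares rose over these classes, from 2.77% with no neighbour to 7.64%, 12.1% and 16.9%. Their P18 shares were 0.531% with no neighbour, then 1.73%, 2.11% and 1.67%.

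**Figure D5:**
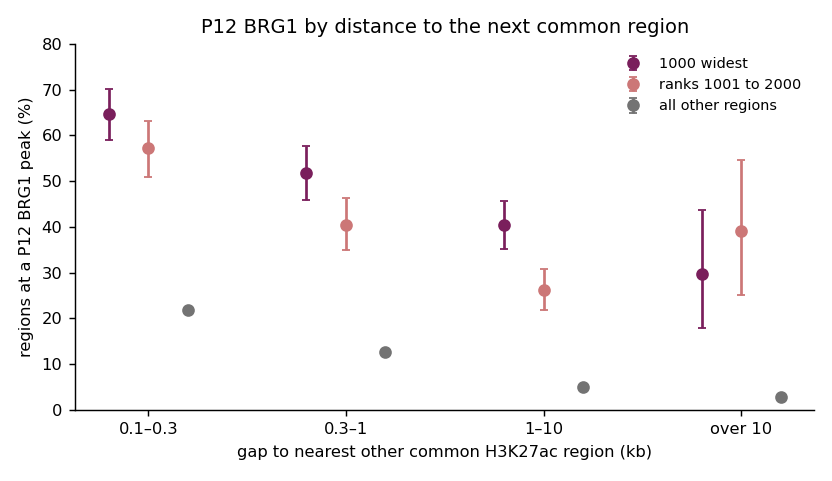
Share of regions overlapped by a P12 BRG1 peak (vertical, exact 95% intervals) by the gap in kb to the nearest other common H3K27ac region, for the 1000 widest regions, the next 1000 and all other regions. Members go from 64.8% at gaps up to 0.3 kb to 29.6% at gaps over 10 kb, where only 54 members remain.

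Some members carried the same deposited name as another common region, and the labels do not say why names repeat. This was so for 223 members (22.3%, 19.8 to 25), against 9.47% (9.33 to 9.61) of the others and 20.1% (17.7 to 22.7) of the next 1000, whose interval overlaps that of members. Such a name had a median of 2 parts, which spanned a median of 2080 bp together. Of the 223, 156 (70.0%, 63.5 to 75.9) met a P12 peak, and of the 777 with a name of their own 348 (44.8%, 41.3 to 48.4). At P18 the shares were 26.0% (20.4 to 32.3) and 17.4% (14.8 to 20.2). Regions outside the members showed this difference too. In the next 1000 the shares were 56.7% and 34.9% at P12, and 26.9% and 12.4% at P18. In all other regions they were 27.4% and 6.87% at P12, and 6.19% and 1.19% at P18. Regions with a repeated name were also mostly those with a close neighbour. Another common region lay within 300 bp of 172 of the 223 members (77.1%) and of 129 of the 777 (16.6%). In all other regions these shares were 77.4% and 8.50%. The difference by name and the difference by gap thus concern largely the same regions, and they were not told apart. BRG1 peaks often ran across short gaps between regions. Of 332 gaps of up to 300 bp beside a member, the middle lay inside a P12 peak in 46.1% (40.6 to 51.6), and the middle of the wider region beside it in 54.2% (48.7 to 59.7). For gaps between other regions these shares were 19.5% (18.9 to 20.2) and 20.2% (19.5 to 20.9). For those beside the next 1000 they were 45.7% (39.9 to 51.6) and 47.1% (41.3 to 53.0), near the values beside members.

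Regions that gained or lost H3K27ac without BRG1 were rare beside members. A lost region lay within 10 kb of 11 members (1.10%, 0.55 to 1.96), against 1.18% of all common regions. A gained region lay within 10 kb of 10 members (1.0%, 0.481 to 1.83), against 1.28%. These shares are near the background and are no result about members, and the small counts leave wide intervals. Within 50 kb the counts were 62 members for either class, 6.2% (4.79 to 7.88), against 5.66% and 5.90% of the other regions. No member had both classes within 10 kb. Of the 21 members with either, 9 met a P12 peak (42.9%, 21.8 to 66.0). That interval includes the 50.4% of all members. Members did not overlap a lost or gained region, as the 3 classes hardly meet in the deposited lists, so nothing was read from it.

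Of the 11 members with a lost region within 10 kb, 5 met a P12 peak, and of the 10 with a gained one 4 did, against 50.4% of all members. The 5 nearest to a lost region are described first, of which 4 lay on BRG1, and the count is too small to set against that share. At chr3:119485302-119486650, a lost region of 146 bp lay 0.497 kb to the left of a member covered to 93.6% by a P12 peak (6.47) and to 53.0% by a P18 peak. The lost region itself was 0.583 kb from the P12 peak. At chr9:74918490-74919668, a lost region of 320 bp lay 0.687 kb away, and the member was covered to 92.8% by a P12 peak (6.04) with no P18 peak. Both of these members were the nearest common region to the lost one. At chr1:88337645-88339161, a P12 peak of 4781 bp enclosed the member and overlapped the lost region, 1.29 kb away, by 28 bp. A member at chr2:32567786-32569102, inside a P12 peak, had a lost region at 4.24 kb. The last, at chr4:42683365-42684768, had one at 4.37 kb and lay 245 kb from the nearest P12 peak.

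The 5 members nearest to a gained region included 2 on BRG1, and no difference from those near a lost region is read from such counts. At chr1:13363031-13364147, a gained region of 194 bp lay 0.564 kb to the left of a member that a P12 peak (7.84) enclosed, and 0.134 kb from that peak. This member met 2 P18 peaks, 1 at each edge. At chr14:59819478-59820611, a P12 peak (8.45) covered 82.8% of the member and the gained region lay 2.30 kb away. The other 3, at chr10:43169756-43170889, at chr3:30922817-30923918 and at chr7:137918530-137919966, had no BRG1 peak. Their gained regions lay 1.19, 2.66 and 3.32 kb away. The changed regions within 10 kb of members were short, 62 to 320 bp for lost and 1 to 203 bp for gained ones, and 1 of the 11 lost and 1 of the 10 gained regions overlapped a P12 peak.

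Members were spread over all 19 chromosomes. They made up between 0.438% (0.312 to 0.598) of the common regions of chromosome 8 and 0.788% (0.635 to 0.967) of those of chromosome 7, which held 91 members. The share of members at a P12 peak ranged from 28.1% (13.7 to 46.7) of 32 on chromosome 13 to 67.8% (57.1 to 77.2) of 90 on chromosome 11. Most other intervals overlapped both ends. On chromosome 4, 37.1% (25.9 to 49.5) of 70 members met a P12 peak and 5 a P18 peak (7.14%). These are the ends of 19 values picked after they were seen and were not tested.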

How the data were processed

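The members and all lists were chosen with earlier results of these data known. Coordinates are those of build mm9. Per the submitters' processing notes, Bowtie, Bowtie2, SAMtools, Picard, deepTools 2.5.2 and MACS2 were used, with roles unstated. The authors deposited 5 region lists, each for its libraries together; how replicates were pooled is not given in any source used here. The strength of a BRG1 peak is the −log10 q value that the authors deposited. The score that the authors deposited with H3K27ac regions has an unknown scale and was not used. No 2 common regions in the deposited list are closer than 101 bp. Region starts and ends, in other units (bp), are as deposited by the authors.

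Overlap, gaps between edges, coverage and neighbours were computed with Python 3.11.15, NumPy 2.4.6 and pandas 2.3.3, and checked against brute force and bedtools 2.31.1 on simulated intervals. Intervals are exact Clopper-Pearson intervals at 95% from SciPy 1.17.1. P12 peaks were split by −log10 q or by width into 5 bins of equal number. Depth is unknown, and no test was run because each list is 1 value per group. Regions named by rule were the 5 widest members, the 5 with the strongest P12 peak, the 5 with most P12 peaks, the 5 widest without BRG1, the 5 nearest to a lost and to a gained region (within 10 kb), and 3 on each side of the limit. H2AK119ub1 and input libraries were not used here. No genome of build mm9 was used here, so no sequence or gene name is given.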

Additional observations from a re-analysis of the deposited data

How the results depend on the processing

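The share of members at a P12 peak (50.4%) was 40.3% when the peak's middle had to lie inside the member, 41.6% when the member's middle had to lie inside a peak, and 36.4% when at least 50% of the peak had to be covered. It was 42.9% with peaks of −log10 q of at least 3, 57.0% for the 500 and 44.9% for the 2000 widest regions, 59.5% after merging across gaps of up to 1 kb, and 43.1% without regions that repeat a name. The 1000 widest after merging are a different set, at least 3559 bp wide with a median of 4379.5 bp. Of the 1000 widest without a repeated name, 777 were members. The P18 share (19.3%) became 16.8% (peak's middle), 9.9% (member's middle), 16.8% (50% covered), 3.7% (−log10 q of at least 3), 22.4% (500 widest), 15.5% (merging 1 kb) and 16.7% (no repeated names). For the peak's middle, the 50% rule, the −log10 q cut and merging, other regions were not counted. Those P12 and P18 shares thus have no background. P12 coverage of the members' length (35.6%) became 32.7% (−log10 q of at least 3), 37.3% (500 widest), 33.0% (2000 widest), 41.6% (central 200 bp) and 38.2% (without the 3 members over 10 kb). With only as many of the strongest P12 peaks as the P18 list holds, 70.0% of members at such a peak also met a P18 peak. Other regions were not counted at this cut. Members near a lost region numbered 2 within 1 kb and 62 within 50 kb, 6 among the 500 and 27 among the 2000 widest; for gained regions these counts were 1, 62, 3 and 27. These counts follow from the distance and the number of regions taken. The median of other common regions was 22 within 50 kb. For the other settings that moved a value, the cause was not tested. In all, 30 alternative values moved, and the remaining 89 stayed within the interval or 1.5 times the count. For P12 coverage of the members' length, the interval took single base pairs as its count and ran from 35.51 to 35.67%. Almost any other setting had to fall outside it, so those moves say little. Most of the 89 left out 1 chromosome, which takes away a small part of the members and could hardly move a value. Merging across gaps of up to 100 bp could change no value, since no gap is that short. The 89 are thus no measure of how firm the results are. Leaving out each chromosome gave 48.7 to 51.4% at P12 and 18.7 to 20.2% at P18, 8 to 11 members near a lost and 8 to 10 near a gained region. Leaving out chromosomes and leaving out the 3 members over 10 kb were added after the data had been seen. No paired analysis was possible because each deposited list holds both replicates of its group together, and for the same reason no replicate could be left out.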
